A study of Mus musculus with 19 samples.

Results

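The genes described here belong to families of enzymes that add methyl groups to histone lysines or take them off. Some of them act on other or uncertain substrates. They are the protein-coding genes of the table whose symbols belong to the Kdm, Kmt2, Kmt5, Setd and Setmar series, together with *Ehmt1*, *Ehmt2*, *Suv39h1*, *Suv39h2*, *Dot1l*, *Nsd1*, *Prdm9*, *Smyd2*, *Smyd3* and *Smyd5*. *Kdm5d* was left out. The names gave 46 genes of the 25891 listed. The rule uses names and no measured value.

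The RNA came from oocytes at metaphase II (MII, the ovulated stage that waits for sperm) and from 2cell embryos of BL6 females aged 6 to 10 weeks. The females had received 5 IU PMSG and, 48 h later, 5 IU hCG, which together bring about ovulation of many oocytes. The CPEB3-/- libraries came from females designed to lose *Cpeb3* in the growing oocyte through Cre under the oocyte-specific *Zp3* promoter, and the CPEB3+/- libraries served as controls, so no library of unaltered wild-type oocytes is compared. By the methods, zygotes were isolated 17 h after hCG and cultured in M16 medium, and 2cell embryos were collected 37 h after hCG. The study paired females with wild-type males in its breeding and embryo culture work, while the genotype of the males behind these libraries is not given in the labels. Each library was made from a pool of 5 cells, and there were 5 CPEB3+/- and 5 CPEB3-/- libraries of MII oocytes and 5 CPEB3+/- and 4 CPEB3-/- libraries of 2cell embryos. Nothing in the labels states that libraries of a group came from separate females, so p-values measure the spread between these libraries.

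Histone methylation is written by SET domain proteins and by DOT1L, and it is erased by flavin-dependent LSD1 family oxidases and by iron-dependent JmjC proteins. Marks on H3K4, H3K36 and H3K79 are found over active genes, while those on H3K9, H3K27 and H4K20 are mostly associated with silent chromatin. In the mouse the oocyte supplies the RNA of these enzymes to the zygote, and the main wave of transcription from the embryonic genome begins at the 2cell stage, when the marks left by the gametes are being rebuilt. CPEB3 is an RNA-binding protein that recognises elements in the 3′UTR of mRNAs and acts on their polyadenylation, translation and stability.

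Values are FPKM, fragments per kilobase of transcript scaled for the depth of the library, so that levels may be compared between genes. The depth, estimated from the steps between low values, lay between 17.2 M and 23.6 M fragments per library (M, mega). *Cpeb3* RNA was low and did not fall in the libraries labelled CPEB3-/-. It averaged 0.162 FPKM there against 0.0755 in CPEB3+/- MII oocytes (two-sided exact permutation test, p = 0.00794), and 0.0554 against 0.0303 FPKM in 2cell embryos (the same exact test, p = 0.0476). Whether the counted exons lie outside the deleted part was not tested, and directions are given below by the labels. The summed level of 10 oocyte markers was 2050 to 2140 FPKM in CPEB3+/- and 1420 to 1680 FPKM in CPEB3-/- MII libraries. Of the 10, 6 had a log2 fold change below 0 and 4 above, 2 were called lower and none higher by limma (5 had an unadjusted p under 0.05), and most of the gap in the sum lay in *Dppa3* (962 ± 96.4 against 658 ± 107 FPKM) and *Mos* (214 ± 47.8 against 67.5 ± 12.3; SD, n = 5 each). The sum of 10 markers of the 2cell stage was 38 to 45.3 and 46.6 to 62.4 FPKM in the same libraries. *Zscan4d*, one of the latter, had 0.825 to 1.51 FPKM in CPEB3+/- and 7.07 to 14.3 FPKM in CPEB3-/- MII libraries. The MII genotypes were thus apart in both sums, and the part of this in the MII differences given below was not tested. In 2cell libraries the oocyte markers summed to 1030 to 1180 FPKM in CPEB3+/- and 765 to 1210 FPKM in CPEB3-/-, and the 2cell markers to 499 to 867 and 488 to 703 FPKM, with overlap. Single markers nevertheless differed between the 2cell genotypes. *Ooep* and *Spz1* were called higher in CPEB3-/- (log2 fold changes 0.92 and 0.85) and *Oosp1* and *Zscan4d* lower (-0.67 and -0.998), which is 1 of 10 markers of each list in each direction. Of 10 cumulus and granulosa cell markers, 1 reached a mean of 0.1 FPKM in MII oocytes, and their sum stayed at or below 1.38 FPKM in every library. In 2cell embryos 2 of the 4 tested were called lower in CPEB3-/-, *Tnfaip6* (0.274 against 0.0905 FPKM) and *Nr5a2* (0.211 against 0.1 FPKM). The part of these marker differences in the 2cell results was not tested. The blood cell list summed to 0.434 FPKM or less in MII libraries and to 46.4 to 148 FPKM in 2cell libraries of both genotypes, nearly all of it from *Hba-a1* and *Hba-a2*, and its part in the results was not tested.

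Levels of the enzymes were low in general. In CPEB3+/- MII oocytes the median over the 46 genes was 0.24 FPKM, 9 genes had a mean of at least 1 FPKM and 19 had a mean below 0.1 FPKM. *Setd6*, which methylates non-histone proteins, ranked first with 7.46 ± 1.13 FPKM (SD, n = 5). It was followed by the H3K9 trimethylation gene *Suv39h2* (6.82 ± 0.512), by *Kdm6b* (4.88 ± 2.13), by *Kdm7a* (3.02 ± 0.228) and by *Kdm1b* (2.55 ± 0.223), each with n = 5. *Setd6* and *Suv39h2* differed by less than their spread, and the libraries of *Kdm7a* (2.78 to 3.34 FPKM) and *Kdm1b* (2.29 to 2.9) overlapped. In CPEB3+/- 2cell embryos *Setd6* (3.72 ± 0.712 FPKM, SD, n = 5) and the H3K36 trimethylation gene *Setd2* (3.43 ± 0.762) were highest, also within their spread, before *Kdm7a*, *Kmt5a* and *Suv39h2* at 1.84, 1.62 and 1.59 FPKM. In the libraries labelled CPEB3-/-, *Kdm6b* had the highest mean of all 46 genes at both stages, with 12.3 ± 5.91 FPKM in MII oocytes (SD, n = 5) and 4.26 ± 0.95 in 2cell embryos (SD, n = 4). Its libraries overlapped those of the next genes, as they reached down to 6.12 FPKM in MII oocytes, where *Suv39h2* had 7.63 to 7.96, and to 3.5 FPKM in 2cell embryos, where *Setd6* had 3.08 to 4.18.

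Within the classes, the H3K4 writers were all low in CPEB3+/- MII oocytes, with *Kmt2c* (0.796 ± 0.104 FPKM) and *Kmt2b* (0.722 ± 0.303) highest, and *Kmt2c* still led in 2cell embryos at 1.11 ± 0.0388 FPKM, followed by *Setd1a* at 0.548 ± 0.198 (SD, n = 5 throughout). *Setdb1*, which silences retroelements through H3K9 methylation, was second to *Suv39h2* among the H3K9 writers of MII oocytes (2.13 ± 0.356 FPKM), and *Setdb2* was second in 2cell embryos (1.45 ± 0.245). *Kmt5a*, the enzyme of H4K20 monomethylation, was near *Setd2* in MII oocytes (1.31 ± 0.242 against 1.4 ± 0.131 FPKM). Of the JmjC demethylases of H3K4, *Kdm5a* (0.343 ± 0.106) and *Kdm5c* (0.332 ± 0.0342) differed by less than their spread in MII oocytes, whereas *Kdm5b* led in 2cell embryos (1.38 ± 0.391 FPKM). *Kdm4a*, which acts on H3K9 and H3K36, was second to *Kdm7a* in MII oocytes with 0.506 ± 0.104 FPKM, and *Kdm3a* was second in 2cell embryos with 0.676 ± 0.0904. *Kdm6a*, the X-linked H3K27 demethylase gene, held 0.849 ± 0.104 FPKM in MII oocytes and 0.653 ± 0.075 in 2cell embryos. *Setd4* was the second gene of its class at both stages (1.12 ± 0.0828 and 0.721 ± 0.12 FPKM). At the other end, *Setd7* was listed at 0 in every MII library, and *Smyd2*, *Kdm4b* and *Kdm4d* had means of at most 0.021 FPKM in every group.

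The first question was how the genotypes differed in MII oocytes, before fertilization. *Kdm6b*, the inducible H3K27 demethylase gene, was higher in the libraries labelled CPEB3-/-, as were the H3K79 methyltransferase gene *Dot1l* and *Setmar*, which carries an H3K36 methylating domain. *Setd2* and *Kdm7a*, a demethylase gene of H3K9 and H3K27, were lower. In the classes used here *Kdm7a* stands with the demethylases of H3K9 and H3K36. A gene was called at an adjusted p under 0.05 (limma, Benjamini-Hochberg over all tested genes) and more than 1.5-fold difference. Of the 46 genes, 28 reached 0.1 FPKM in 5 MII libraries and were tested. Called higher were 3 of them (10.7%), where 5.71% of all 10515 tested genes were called higher, and called lower were 2 (7.14%), where the background was 7.15%. The median log2 fold change of the tested members was 0.18 and that of all genes 0.02. Differences were taken between values of log2(FPKM + 0.1), so those of genes near 0.1 FPKM come out too small.

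*Kdm6b* (chromosome 11, 69398508 to 69413676, GRCm38) had 3.27, 7.35, 2.41, 4.65 and 6.72 FPKM in CPEB3+/- MII libraries A to E. The CPEB3-/- libraries A to E held 22, 11.6, 12.3, 6.12 and 9.63 FPKM. Library D of the second group lay within the range of the first, and the other 4 lay above it. The log2 fold change was 1.22 with a standard error of 0.33 (adjusted p = 0.0267), or 2.34-fold. The call was lost without any of the CPEB3+/- libraries A, C and D or the CPEB3-/- libraries A, B and C, with adjusted p between 0.0501 and 0.0682. Of the exon bases of *Kdm6b*, 4.11% are shared with the antisense gene *Kdm6bos*, and the reads of the pair cannot be told apart without strand.

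*Setd2* (chromosome 9, 110532597 to 110618634) had 1.39, 1.48, 1.33, 1.58 and 1.24 FPKM in the CPEB3+/- MII libraries, and 0.966, 0.973, 0.828, 0.921 and 0.995 FPKM in the CPEB3-/- libraries. The groups did not overlap. The log2 difference was -0.62 (SE 0.10, adjusted p = 0.00291). The decrease slipped under 1.5-fold, with adjusted p of at most 0.0102, when CPEB3+/- library D (-0.58) or CPEB3-/- library C (-0.57) was left out.

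*Kdm7a* (chromosome 6, 39136623 to 39206790) had 3.13, 2.83, 3.03, 3.34 and 2.78 FPKM in CPEB3+/- and 1.64, 1.87, 2.19, 2.56 and 2.39 FPKM in CPEB3-/- MII libraries, again without overlap. Its log2 fold change was -0.59 (SE 0.15, adjusted p = 0.0202), just past the fold threshold. Leaving out CPEB3+/- library A, C or D or CPEB3-/- library A or B moved it to between -0.56 and -0.48, under 1.5-fold, with adjusted p of at most 0.0499. Of the exon bases of *Kdm7a*, 2.85% are shared with the antisense gene *4930599N23Rik*, whose reads cannot be told apart without strand.

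*Setmar* (chromosome 6, 108065045 to 108077123) was measured at 0.219, 0.187, 0.168, 0.241 and 0.202 FPKM in CPEB3+/- MII libraries. The CPEB3-/- libraries held 0.45, 0.553, 0.345, 0.433 and 0.285 FPKM, all above the first group. Their log2 difference was 0.67 (SE 0.15, adjusted p = 0.0113), and it was 0.58, just under the threshold, without CPEB3-/- library B. These levels correspond to an estimated 6.9 to 19.2 fragments per library.

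*Dot1l* (chromosome 10, 80755206 to 80795462) had 0.692, 1.16, 0.638, 0.843 and 1.04 FPKM in CPEB3+/- and 2.23, 1.58, 1.5, 0.917 and 1.24 FPKM in CPEB3-/- MII libraries. The ranges overlapped through CPEB3-/- library D, as for *Kdm6b*. The log2 fold change of 0.60 (SE 0.19) had an adjusted p of 0.0498, at the threshold. It was called in 2 of the 10 fits that each left out a library, those without CPEB3+/- library B or CPEB3-/- library D.

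**Figure D1:**
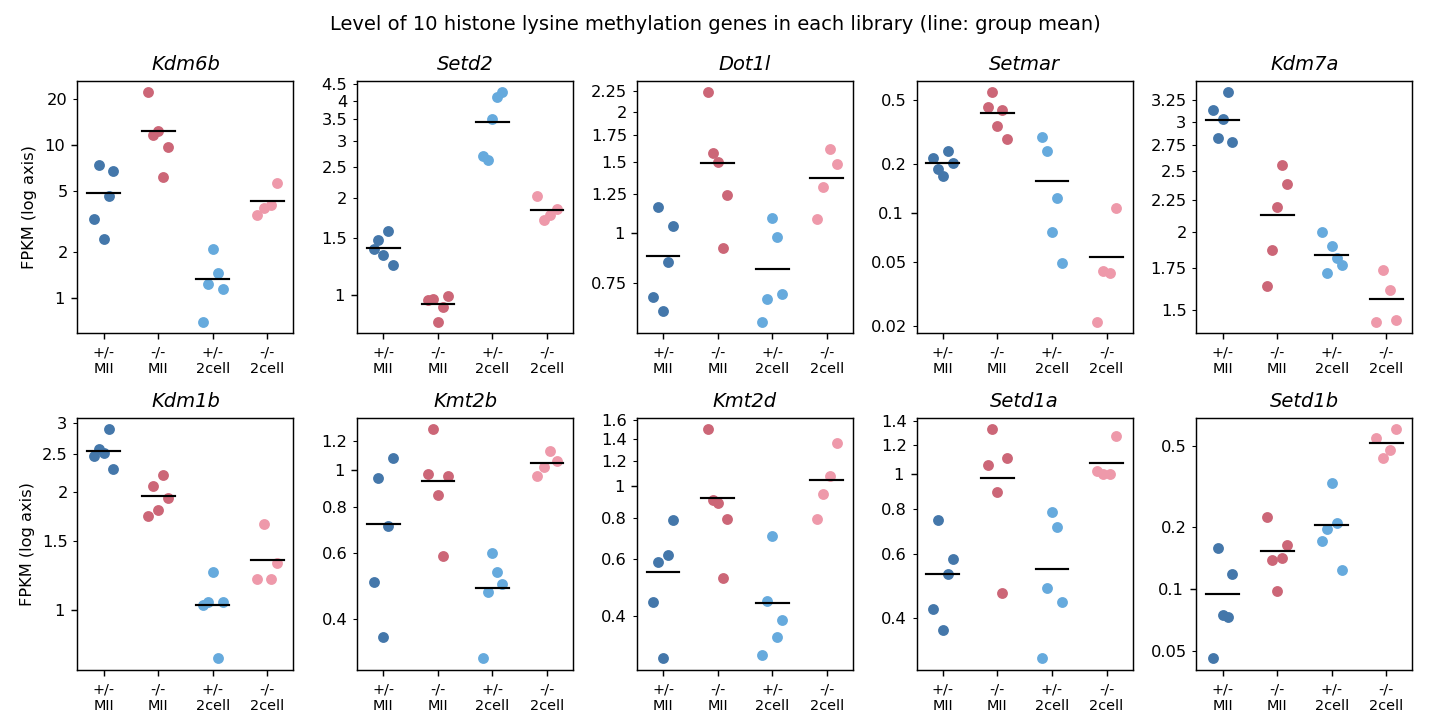
FPKM on a log axis (each panel has its own range) of the 10 enzymes called between genotypes or for the interaction of stage and genotype, 1 point per library, with a line at the mean of each group (+/- and -/- stand for CPEB3+/- and CPEB3-/-). *Setd2* lies lower in every CPEB3-/- library of each stage, while *Kdm6b* overlaps in MII oocytes (2.41 to 7.35 against 6.12 to 22 FPKM) and not in 2cell embryos (0.699 to 2.07 against 3.5 to 5.65 FPKM).

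The other 23 tested genes of MII oocytes were not called. *Kdm1a* and *Kdm1b*, the genes of the LSD1 family, moved in opposite directions below the fold threshold. *Kdm1a*, a demethylase gene of H3K4 and H3K9, had 0.767 to 1.06 FPKM in CPEB3+/- and 1.22 to 1.68 FPKM in CPEB3-/- libraries (log2 fold change 0.48, SE 0.10, adjusted p = 0.00938). *Kdm1b*, the H3K4 demethylase gene required for maternal imprints, had 2.29 to 2.9 FPKM in CPEB3+/- and 1.74 to 2.21 FPKM in CPEB3-/- libraries (-0.46, SE 0.11, adjusted p = 0.0185). *Kmt2e* also passed the adjusted p with less than 1.5-fold difference (-0.35, adjusted p = 0.0455). The H3K4 writers *Kmt2d* and *Setd1a* had log2 fold changes of 0.57 and 0.66 with adjusted p of 0.11 and 0.0663. None of the 4 tested H3K9 writers was called by limma, and their log2 fold changes lay between -0.12 and 0.30. Of these writers 1 had an unadjusted p under 0.05, as did 3903 of all 10515 tested genes. In all, 4 tested members were higher in every CPEB3-/- than in every CPEB3+/- library (*Kdm1a*, *Kdm2a*, *Setmar* and *Suv39h2*), where 8.71% of all tested genes were, and 3 were lower in every such library (*Kdm1b*, *Kdm7a* and *Setd2*), where 7.57% were.

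The second question was how 2cell embryos differed according to the genotype of the oocyte. In the libraries labelled CPEB3-/-, 4 writers of H3K4 methylation were called higher (*Kmt2b*, *Kmt2d*, *Setd1a* and *Setd1b*), beside *Kdm6b* and *Dot1l*, and *Setd2* was called lower. Of the 46 genes, 35 reached 0.1 FPKM in 4 libraries of 2cell embryos and were tested. Called higher were 6 (17.1%), where 8.98% of all 14051 tested genes were, and called lower was 1 (2.86%), where 9.05% were. The median log2 fold change was 0.28 over the members and 0.01 over all genes. As 6 H3K4 writers were tested, the 4 called genes left *Kmt2c* and *Prdm9*. The other called genes were *Dot1l* and *Setd2* of the 7 tested writers of H3K36, H3K79 and H4K20 and *Kdm6b* of the H3K27 demethylases. None of the 5 H3K9 writers, the 3 other Setd genes, the LSD1 family, the 3 H3K4 demethylases and the 7 demethylases of H3K9 and H3K36 was called (limma). In these classes 5 genes had an unadjusted p under 0.05, as did 4789 of all 14051 tested genes.

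*Kdm6b* had 0.699, 1.24, 2.07, 1.46 and 1.14 FPKM in CPEB3+/- 2cell libraries A to E and 3.5, 3.86, 4.04 and 5.65 FPKM in CPEB3-/- libraries A to D. The lowest of the second group exceeded the highest of the first. The log2 fold change was 1.65 (SE 0.26, adjusted p = 0.00389), or 3.13-fold, the largest of the 35 tested members on the log2(FPKM + 0.1) scale. Each of the 9 fits without 1 library called it. On that scale *Kdm6b* also had the largest difference of the 28 tested members in MII oocytes. *Kmt2a*, which was too low to be tested, is described separately.

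*Setd2* had 2.69, 2.62, 3.5, 4.11 and 4.24 FPKM in CPEB3+/- 2cell libraries and 2.02, 1.71, 1.77 and 1.85 FPKM in CPEB3-/- libraries. No value of the second group reached the first. Their log2 fold change was -0.86 (SE 0.16, adjusted p = 0.00765), and each of the 9 fits without 1 library called it. Of the 26 members tested at both stages, *Setd2* was the 1 whose CPEB3-/- libraries all lay below the CPEB3+/- libraries at each, where 2.95% of all genes tested at both stages did so. The 3 members *Kdm1a*, *Kdm2a* and *Suv39h2* lay above at each stage, where 2.49% of those genes did.

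*Kmt2d*, a writer of H3K4 monomethylation at enhancers (chromosome 15, 98831669 to 98871205), had 0.303, 0.443, 0.704, 0.345 and 0.388 FPKM in CPEB3+/- and 0.794, 0.945, 1.08 and 1.36 FPKM in CPEB3-/- 2cell libraries. The groups were apart, with a log2 fold change of 1.09 (SE 0.23, adjusted p = 0.0109). *Setd1b*, of the SET1 complexes that write H3K4 trimethylation at promoters (chromosome 5, 123142193 to 123168630), had 0.172, 0.197, 0.328, 0.209 and 0.124 FPKM in CPEB3+/- and 0.546, 0.434, 0.479 and 0.602 FPKM in CPEB3-/- libraries. These groups too were apart (log2 fold change 1.02, SE 0.20, adjusted p = 0.00904).

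*Kmt2b*, the H3K4 methyltransferase gene that the oocyte needs before ovulation (chromosome 7, 30568858 to 30588727), had 0.314, 0.472, 0.601, 0.533 and 0.496 FPKM in CPEB3+/- and 0.967, 1.02, 1.13 and 1.06 FPKM in CPEB3-/- 2cell libraries. The 2 ranges were separate (log2 fold change 0.97, SE 0.17, adjusted p = 0.00585). *Setd1a* (chromosome 7, 127776670 to 127800123) had 0.31, 0.486, 0.788, 0.715 and 0.442 FPKM in CPEB3+/- and 1.02, 1, 1 and 1.27 FPKM in CPEB3-/- libraries, also apart (0.89, SE 0.23, adjusted p = 0.0235). Its call was lost without CPEB3+/- library E (adjusted p = 0.0555) or CPEB3-/- library B (0.0513) or D (0.0669). The value of *Setd1a* is uncertain, since 51.8% of its exon bases are shared with the annotated gene *Gm49388* on the same strand. *Kmt2b*, *Kmt2d* and *Setd1b* kept their calls in each of the 9 fits without 1 library. Of 8 other settings, 4 called *Kmt2b*, 5 called *Kmt2d* and 5 called *Setd1b*.

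*Dot1l* had 0.601, 0.685, 1.09, 0.974 and 0.702 FPKM in CPEB3+/- and 1.08, 1.3, 1.61 and 1.48 FPKM in CPEB3-/- 2cell libraries. The ranges touched at 1.09 and 1.08 FPKM. The log2 fold change of 0.68 (SE 0.19, adjusted p = 0.0359) was called in 3 of 9 fits that left out a library, and the adjusted p was 0.0643 to 0.0969 without CPEB3+/- library A, B or E or CPEB3-/- library B, C or D.

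*Kmt2c*, the close relative of *Kmt2d*, was not called. Its 5 CPEB3+/- 2cell libraries lay between 1.05 and 1.14 FPKM and its 4 CPEB3-/- libraries between 0.904 and 0.954 FPKM, with a log2 fold change of -0.26 (SE 0.12, adjusted p = 0.167). It was one of 3 tested members lower in every CPEB3-/- library, with *Setd2* and *Setdb2*, where 9.56% of all tested genes were. In the other direction 9 tested members were higher in every CPEB3-/- library, where 10.4% of all tested genes were: *Kdm1a*, *Kdm2a*, *Kdm6b*, *Kmt2b*, *Kmt2d*, *Setd1a*, *Setd1b*, *Setd4* and *Suv39h2*.

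**Figure D2:**
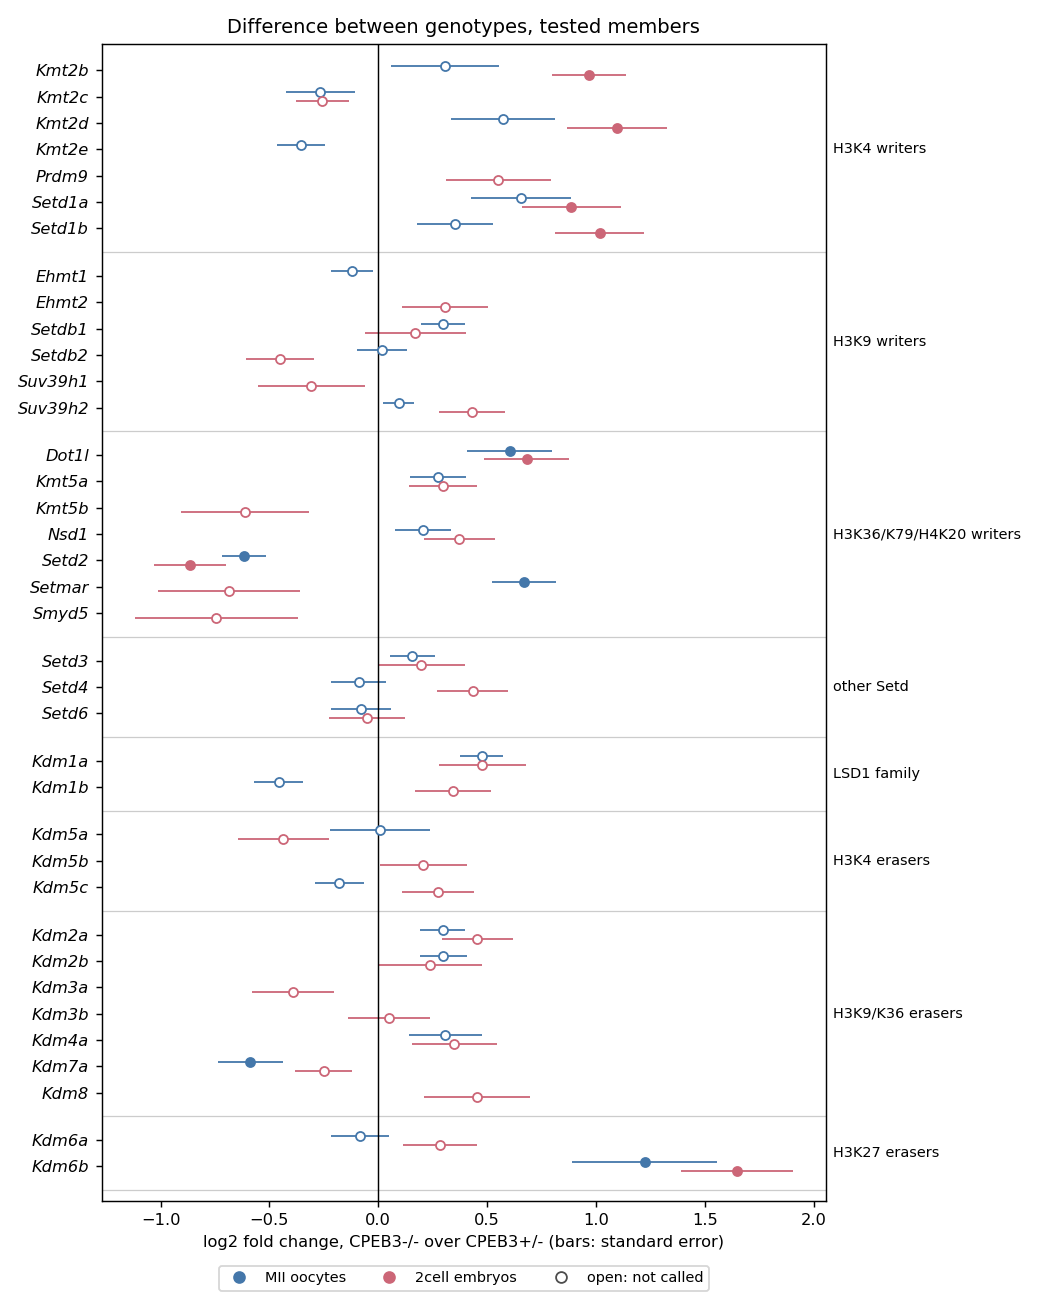
Log2 fold change on the log2(FPKM + 0.1) scale of CPEB3-/- over CPEB3+/- libraries for each tested member, by class of enzyme, with standard errors as bars and filled points for called genes (28 members in MII oocytes, 35 in 2cell embryos). Between the H3K4 writers, *Kmt2b*, *Kmt2d*, *Setd1a* and *Setd1b* lie at 0.89 to 1.09 in 2cell embryos and *Kmt2c* at -0.26, and the H3K9 writers lie between -0.45 and 0.43.

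The 6 called members with the largest GC content were those called higher in 2cell embryos. Their transcripts have 57.0% (*Setd1a*) to 59.6% GC (*Kdm6b*), where the median of the tested members was 49.7% and that of all tested genes 48.9%. *Setd2* has 44.3% and *Kdm7a* 39.6%. Across the 35 members tested in 2cell embryos the log2 fold change and the GC content had a Pearson r of 0.597, and across the 28 of MII oocytes one of 0.635. Across all tested genes, which share the libraries and are not independent, r was 0.366 and 0.316. In each library the log2 level of a gene relative to its mean over the stage was regressed on GC content. The slope per 10 percentage points of GC ran from -0.238 to -0.0392 in CPEB3+/- and from 0.129 to 0.341 in CPEB3-/- 2cell libraries, so the genotypes were apart in it. In MII oocytes it ran from -0.318 to 0.0411 in CPEB3+/- and from -0.0218 to 0.388 in CPEB3-/- libraries. CPEB3+/- libraries B and E, with slopes of 0.0366 and 0.0411, summed to 11 and 10.3 FPKM over these 6 genes, and CPEB3-/- libraries D and E, with slopes of -0.0218 and -0.0079, to 8.76 and 13.9 FPKM. Of these sums *Kdm6b* alone held 7.35 and 6.72 FPKM in the CPEB3+/- and 6.12 and 9.63 FPKM in the CPEB3-/- libraries. The other CPEB3+/- MII libraries summed to 4.15 to 7.42 FPKM and the other CPEB3-/- libraries to 16.5 to 28 FPKM.

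When the trend with GC content was removed from each library, *Kdm6b* stayed called at both stages, with log2 fold changes of 0.96 (adjusted p = 0.0185) in MII oocytes and 1.22 (adjusted p = 0.00831) in 2cell embryos. *Setd2* stayed called in 2cell embryos (-0.70, adjusted p = 0.0202) and had -0.51 with an adjusted p of 0.00427, under 1.5-fold, in MII oocytes. Among the H3K4 writers of 2cell embryos, *Kmt2d* (0.71, adjusted p = 0.0414) and *Setd1b* (0.61, adjusted p = 0.0437) stayed called, *Kmt2b* fell under 1.5-fold (0.56, adjusted p = 0.0441) and *Setd1a* lost its call (0.56, adjusted p = 0.0954), while *Suv39h2* was called higher (0.65, adjusted p = 0.0203). *Dot1l* was not called at either stage (0.38 and 0.33, adjusted p = 0.0578 and 0.257). *Kdm7a* moved to -0.31 in MII oocytes, while *Setmar* stayed called (0.70, adjusted p = 0.00889). With transcript length removed as well, the H3K4 writers had log2 fold changes of 0.43 to 0.59 in 2cell embryos with adjusted p of 0.0618 to 0.147, and *Kdm6b* (1.10, adjusted p = 0.00917) and *Setd2* (-0.83, adjusted p = 0.00951) were called. What gave rise to the slopes was not tested.

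**Figure D3:**
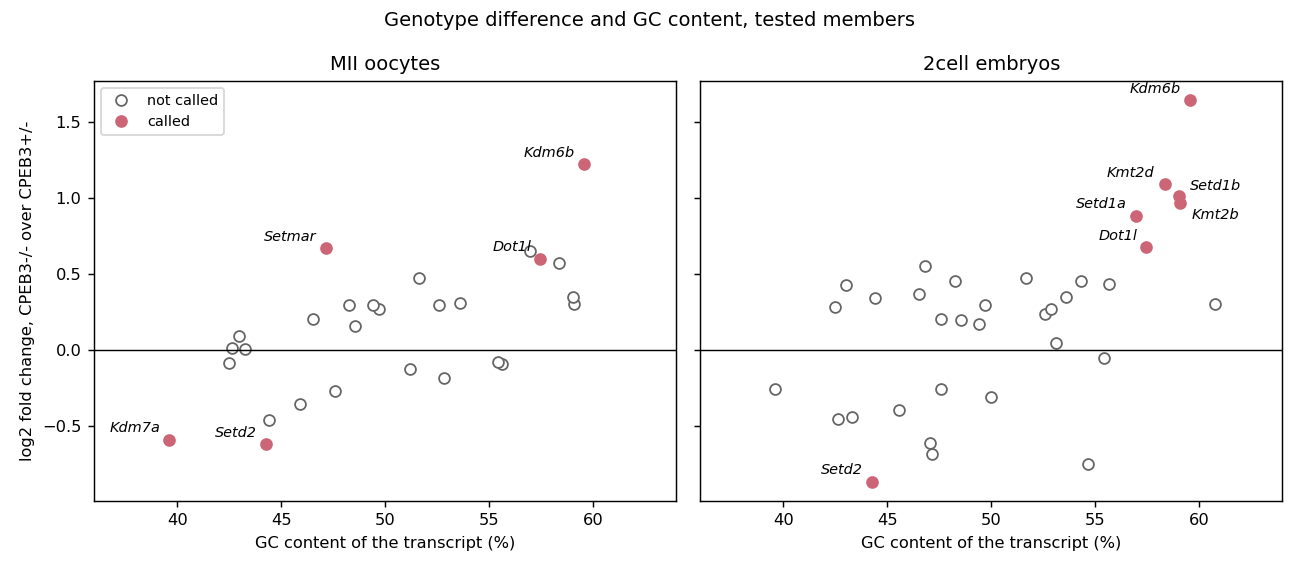
GC content of the transcript (%) against the log2 fold change of CPEB3-/- over CPEB3+/- libraries for the tested members in MII oocytes (28) and 2cell embryos (35), with called genes filled and named. The 6 genes called higher in 2cell embryos lie between 57.0% and 59.6% GC, and *Setd2*, called lower at both stages, lies at 44.3%.

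The scaling of libraries also moved these counts. With each library scaled to its column sum the median log2 fold change of all genes was 0.15 in MII oocytes and 0.26 in 2cell embryos, against 0.02 and 0.01 in the fits above. The calls then were 5 higher and 0 lower of 28 members in MII oocytes, where 10.6% of all genes were higher and 4.55% lower by the same call. In 2cell embryos they were 13 higher and 0 lower of 35, where 17.2% and 4.08% of all genes were, and *Setd2* still had a log2 fold change of -0.56 (adjusted p = 0.0493). On values as deposited, 2 members were called higher and 0 lower in MII oocytes, where 7.48% and 5.62% of all genes were. In the comparisons that had called them, the named members kept the sign of their difference in every setting tried. Comparisons that had not called them were not checked.

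*Kmt2a*, the MLL1 gene, did not pass the level filter at either stage, and it is described because its values were seen to separate the genotypes at both stages. Of the untested members, *Setd5* also lay higher in every CPEB3-/- MII library and *Kdm4d* lower, and in 2cell embryos *Kmt5c* lay higher and *Smyd3* lower, all below 0.1 FPKM in those libraries. The share of all genes under the filter that lay apart in this way was not counted. *Kdm4d* rests on an estimated 4.15 fragments in the 5 CPEB3+/- and 0.603 in the 5 CPEB3-/- MII libraries together. *Kmt2a* itself had 0.00475, 0.000621, 0.00956, 0.0016 and 0.00541 FPKM in CPEB3+/- MII libraries. The CPEB3-/- MII libraries held 0.144, 0.0771, 0.098, 0.0409 and 0.0588 FPKM. Every value of the second group exceeded those of the first. The 5 CPEB3+/- libraries hold an estimated 7.9 fragments in all and the 5 CPEB3-/- libraries 150. In 2cell embryos the CPEB3+/- libraries had 0.00386 to 0.0173 FPKM (12.4 estimated fragments in all) and the CPEB3-/- libraries 0.0286 to 0.0583 FPKM (57.2 fragments). In the fit without a level filter the log2 fold change was 0.76 (SE 0.12, adjusted p = 0.00635) in MII oocytes and 0.43 (SE 0.07, adjusted p = 0.01) in 2cell embryos, where the added 0.1 FPKM is larger than all but 1 of the values. The GC content of its transcript is 50.6%.

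The next question was how the enzymes changed from the MII oocyte to the 2cell embryo. In CPEB3+/- libraries the isoenzymes of H3K9 trimethylation moved in opposite directions, with *Suv39h2* falling and *Suv39h1* rising to a level still below it, and *Kdm5b* and *Kdm3a*, demethylases of H3K4 and of H3K9, rose from low levels. Both LSD1 family genes, *Ehmt1*, *Setdb1* and *Kdm6b* fell. In the fit of all 19 libraries, with 0.1 FPKM in at least 4 of them, 37 members were tested. In CPEB3+/- libraries 11 were called higher in 2cell embryos (29.7%), where 41.1% of all 15786 tested genes were, and 12 lower (32.4%), where 24.6% were. Of the 37, *Ehmt2*, *Kdm3a*, *Kmt5b*, *Prdm9* and *Suv39h1* were below 0.1 FPKM in all 5 MII libraries and *Ehmt1* in all 5 of the 2cell embryo, and they passed the filter through the other stage, libraries of both genotypes counted. Bulk values cannot tell fewer cells of a type from less RNA per cell, and FPKM cannot tell a change in the RNA of a gene from a change in the RNA of all others.

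*Suv39h1* rose from 0.032 ± 0.0243 to 1.13 ± 0.176 FPKM (SD, n = 5 each; log2 fold change 3.23, SE 0.20), the largest rise of the 37 tested members on the log2(FPKM + 0.1) scale. *Suv39h2* fell from 6.82 ± 0.512 to 1.59 ± 0.247 FPKM (-2.07, SE 0.10), the largest fall on that scale. *Kdm5b* rose from 0.0955 ± 0.0189 to 1.38 ± 0.391 FPKM (2.88, SE 0.16) and *Kdm3a* from 0.0471 ± 0.0243 to 0.676 ± 0.0904 FPKM (2.40, SE 0.16). *Kdm6b* fell from 4.88 ± 2.13 to 1.32 ± 0.501 FPKM (-1.79, SE 0.31), and *Ehmt1*, which with *Ehmt2* writes H3K9 dimethylation, from 0.323 ± 0.0307 to 0.0511 ± 0.0114 FPKM (-1.51, SE 0.12). The ratio of the means, 2cell over MII, was 0.158 for *Ehmt1* and 0.233 for *Suv39h2*, so without the added 0.1 FPKM *Ehmt1* had the larger fall of the pair. In these 6 genes no 2cell library reached the range of the MII libraries. They were chosen from these values as the 3 largest rises and falls, so this separation is no further evidence. Its share over all genes was not counted. *Ehmt2* rose from 0.00591 ± 0.00878 to 0.0861 ± 0.0329 FPKM, the opposite direction to *Ehmt1*, at levels where few fragments were counted.

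In the writer of H3K36 trimethylation, *Setd2*, the rise in CPEB3+/- was from 1.4 ± 0.131 to 3.43 ± 0.762 FPKM (1.19, SE 0.13), and in CPEB3-/- from 0.937 ± 0.0667 to 1.84 ± 0.135 FPKM (0.97, SE 0.14). Between the libraries labelled CPEB3-/-, 10 members were called higher in 2cell embryos (27%), where 41.3% of all tested genes were, and 9 lower (24.3%), where 23.4% were. Of those called, *Ehmt2*, *Kdm3b*, *Kmt5b*, *Prdm9* and *Suv39h1* were below 0.1 FPKM in all 5 MII libraries and *Ehmt1* in all 4 of the 2cell embryo, so 5 of the 10 higher calls and 1 of the 9 lower calls are of genes that passed the filter through the other stage in the same way. The 6 genes above were called in the same direction: *Suv39h1* with 3.0, *Suv39h2* with -1.70, *Kdm5b* with 3.07, *Kdm3a* with 1.94, *Kdm6b* with -1.33 and *Ehmt1* with -1.45 on the log2 scale. *Prdm9*, the H3K4 methyltransferase gene of meiotic recombination, rose in both genotypes (0.97 in CPEB3+/- and 1.67 in CPEB3-/-), reaching 0.177 ± 0.0858 and 0.296 ± 0.046 FPKM.

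**Figure D4:**
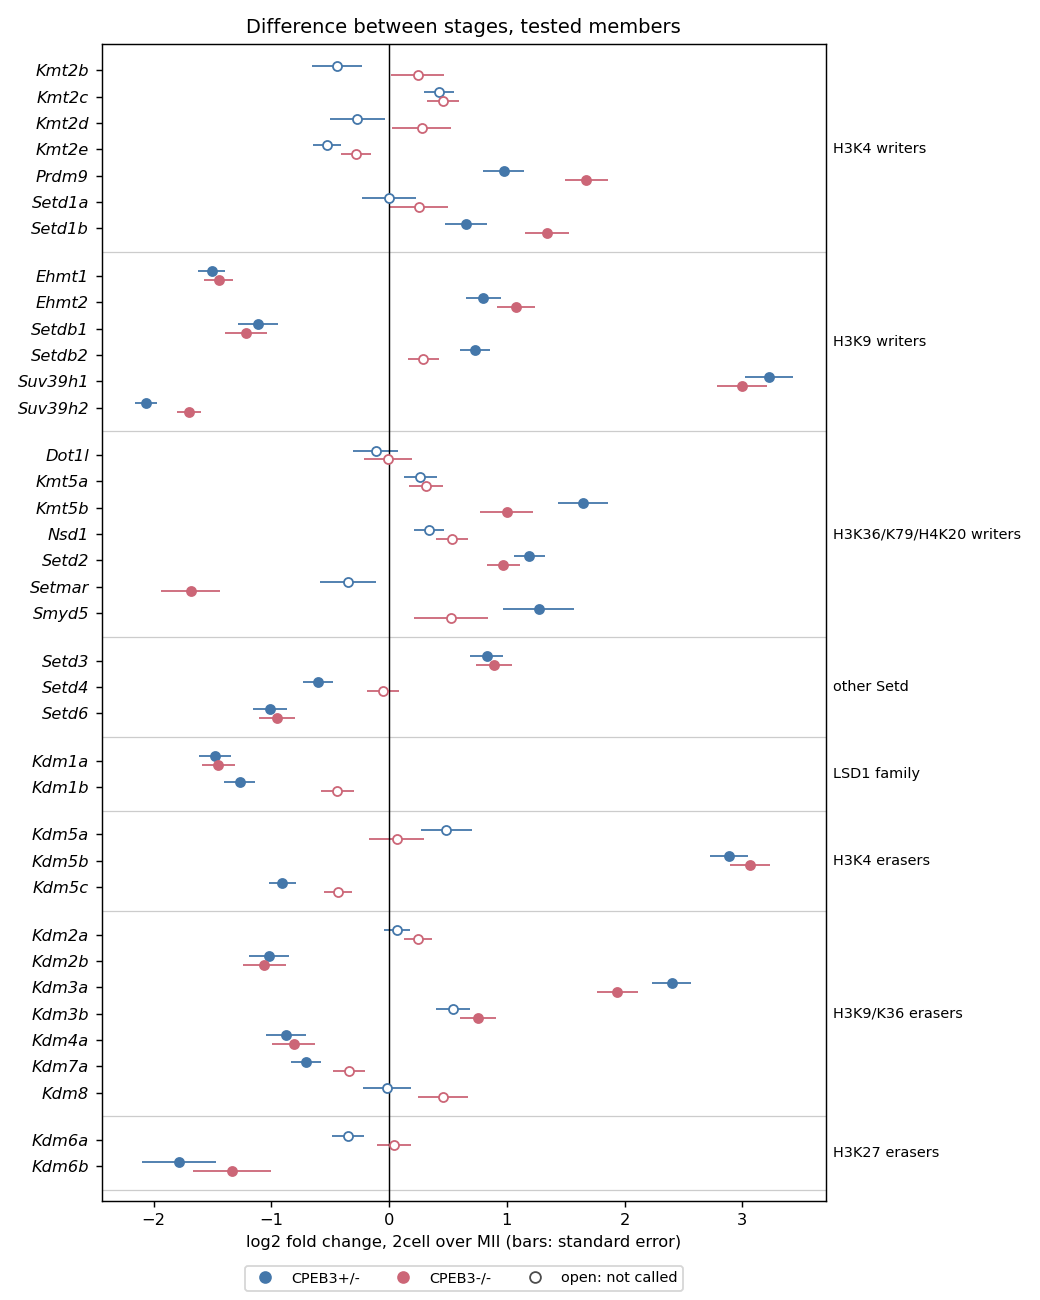
Log2 fold change on the log2(FPKM + 0.1) scale of 2cell embryos over MII oocytes for the 37 tested members, in CPEB3+/- and CPEB3-/- libraries, with standard errors as bars and filled points for called genes. *Suv39h1*, *Kdm5b* and *Kdm3a* lie far to the right in both genotypes and *Suv39h2* far to the left, and *Setmar* and *Kdm1b* show the widest separation of the genotypes relative to their errors.

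The split between rises and falls depended on the scaling. The median over all genes was 0.34 on the log2 scale in CPEB3+/- libraries, and -0.17 when libraries were scaled to their column sum, which gave 6 members higher and 19 lower, where 31.5% and 37.6% of all genes were. After the trend with GC content was removed, 5 were higher and 20 lower, where 28% and 38.6% of all genes were, and the median of all genes was -0.23. In CPEB3-/- libraries the column sum gave 7 higher and 15 lower (33.7% and 35.3% of all genes), and removal of the GC trend 5 higher and 18 lower (27.8% and 37.5% of all genes). The 6 genes described above as the largest rises and falls in CPEB3+/- libraries kept their direction in all of these settings. Their choice by size favours this.

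Whether the genotype difference itself changed between the stages was tested as an interaction, of which 2 of the 37 tested members were called, while 7.77% of all tested genes were. *Setmar* had an interaction of -1.34 on the log2 scale (SE 0.35, adjusted p = 0.0233). It was higher in CPEB3-/- MII oocytes, as given above, but in 2cell embryos had 0.294, 0.242, 0.0768, 0.123 and 0.0491 FPKM in CPEB3+/- and 0.0214, 0.0438, 0.0424 and 0.107 FPKM in CPEB3-/- libraries. These 2cell ranges overlapped (-0.68, SE 0.33, adjusted p = 0.17), and the 4 CPEB3-/- libraries hold an estimated 7.08 fragments in all. *Kdm1b* (chromosome 13, 47043499 to 47085280) had an interaction of 0.83 (SE 0.19, adjusted p = 0.0132). Its MII values were 2.48, 2.58, 2.52, 2.9 and 2.29 FPKM in CPEB3+/- and 1.74, 2.08, 1.8, 2.21 and 1.93 FPKM in CPEB3-/- libraries, with the second group lower throughout. In 2cell embryos they were 1.03, 1.05, 1.25, 0.752 and 1.05 FPKM against 1.2, 1.66, 1.2 and 1.32 FPKM, with overlap and a log2 fold change of 0.34 (SE 0.17, adjusted p = 0.196). The fall of *Kdm1b* from MII to 2cell was 1.27 log2 units in CPEB3+/- and 0.44 in CPEB3-/- libraries. Of the exon bases of *Kdm1b*, 9.19% lie opposite to exons of *Dek*, and the reads of the pair there cannot be told apart without strand. Each of the 19 fits without 1 library called both interactions. For *Kdm6b* the interaction was 0.45 (SE 0.46, adjusted p = 0.603), and for *Kmt2b*, *Kmt2d*, *Setd1a* and *Setd1b* it was 0.26 to 0.69 with adjusted p of 0.115 to 0.702, so a change of their difference between stages was not detected.

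The proteins that work with these enzymes were taken from 4 lists of 51 genes. In MII oocytes 37 were tested and 1 was called in each direction (2.7%, against 5.71% higher and 7.15% lower of all genes). *Cbx1*, the H3K9 methyl reader HP1 beta, had 5.54 ± 0.954 FPKM in CPEB3+/- and 9.6 ± 2.42 in CPEB3-/- libraries (log2 fold change 0.67, adjusted p = 0.0109), and *Psip1*, which tethers MLL complexes to chromatin, had 14.9 ± 2.62 and 9.48 ± 2.61 FPKM (-0.76, adjusted p = 0.0365). In 2cell embryos 37 were tested, and 3 were called higher and 3 lower (8.11% each, against 8.98% and 9.05% of all genes). Among 13 tested subunits of the COMPASS complexes, which carry the H3K4 writers, *Bod1* was called higher (0.69, adjusted p = 0.00506) and *Bod1l* (-0.86, adjusted p = 0.0291) and *Pagr1a* (-0.72, adjusted p = 0.0113) lower, and the median of the subunits was 0.03, with 8 above 0 and 5 below. *Uhrf1*, a reader of H3K9 methylation and of hemimethylated DNA, had 0.811 ± 0.28 FPKM in CPEB3+/- and 2.41 ± 0.675 in CPEB3-/- 2cell libraries (1.45, adjusted p = 0.00626). *Rcor2*, a scaffold of the LSD1 complex, was higher as well (0.87, adjusted p = 0.02), and *Pphln1* of the HUSH silencing complex was lower (-0.65, adjusted p = 0.0402). From MII to 2cell in CPEB3+/- libraries, 10 of the 42 tested partners were called higher (23.8%, against 41.1% of all genes) and 17 lower (40.5%, against 24.6%). Of these calls, 5 of the 10 and 2 of the 17 are of genes below 0.1 FPKM in every CPEB3+/- library of the lower stage, which passed the filter through the other. In CPEB3-/- libraries 13 were called higher (31%, against 41.3%), 3 of them of that kind, and 17 lower (40.5%, against 23.4%), 2 of them of that kind.

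Because CPEB3 binds 3′UTRs, the ends of the annotated 3′UTRs of the enzymes were searched. The last 100 bases of the longest 3′UTR of each gene (GENCODE vM21, GRCm38, sense strand) were read for TTTTAT, a cytoplasmic polyadenylation element, and for AATAAA, the polyadenylation hexamer. TTTTAT was present in 11 of the 46 members (23.9%), in 14.4% of the 16299 protein-coding genes with a 3′UTR that long, and in 16.4% of the 7430 of these tested in MII oocytes. Anywhere in the 3′UTR it was present in 78.3% of members, 55.7% of all these genes and 61.2% of those tested in MII oocytes, at median 3′UTR lengths of 1280, 1110 and 1120 bases. AATAAA was present in 28 members (60.9%), in 65.8% of all these genes and in 68.2% of those tested in MII oocytes. Of the 10 members called between genotypes or for the interaction, 4 had TTTTAT in this window. They are printed here to show the element in its surroundings, together with *Kmt2a*. The capitals mark TTTTAT and AATAAA, and each window of 30 bases runs 5′ to 3′ along the mRNA.
Setd2: ttttactgaactTTTTATgtaaaaAATAAA
Setd1a: ccaacaccacatTTTTATaattgtgattaa
Setd1b: tattatagtaacTTTTATaaagcaaaccat
Kmt2b: ttctatgcacttTTTTATttaagagggcgg
Kmt2a: ctatgcacttttTTTTATttaagtgatagt
The element begins 57 bases before the annotated end in *Setd2* (window at chr9:110618565-110618594, plus strand), 35 in *Setd1a* (chr7:127800076-127800105, plus), 39 in *Setd1b* (chr5:123168579-123168608, plus), 65 in *Kmt2b* (chr7:30568905-30568934, minus) and 51 in *Kmt2a* (chr9:44803388-44803417, minus). *Setd2*, lower in both stages, and *Setd1a*, *Setd1b* and *Kmt2b*, higher in 2cell embryos, all hold the element. *Kdm6b*, *Kmt2d*, *Dot1l*, *Setmar*, *Kdm7a* and *Kdm1b* have no TTTTAT in the last 100 bases. In its whole 3′UTR of 6588 bases *Kdm7a* holds 14, and *Kdm6b* none in 1318 bases. Which 3′ ends are used in oocytes was not measured, and a match of letters does not show binding.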

How the data were processed

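RNA-seq libraries of MII oocytes and 2cell embryos were analysed from the table of gene values that the authors deposited. Per the submitters' notes and the methods, reads were trimmed with Trim Galore 0.4.1, aligned to GRCm38 with HISAT2 2.0.5, and turned into FPKM in SeqMonk by the authors; the kit does not keep strand. The deposited FPKM carry no counts, so no count model was used, and 0 columns of values were left out. Gene ends in the table lie 1 base past those of GENCODE vM21 for all 46 members.

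For scaling, log ratios to a reference library were averaged after trimming 30% of the ratios and 5% of the levels at each end. Log2(FPKM + 0.1) was fitted in limma 3.58.1 (R 4.3.3) with a variance trend, separately for MII and 2cell libraries for the genotypes and with all 19 libraries for stage and interaction. A gene was tested where at least 0.1 FPKM was reached in a number of libraries equal to the smaller group. At 0.1 FPKM, the median member (7032 exon bases) rests on about 13.9 fragments at the median estimated depth of 19.7 M fragments (M, mega). This depth is uncertain, since 41% of low values lay within 0.05 of a whole fragment. Adjustment of p-values followed Benjamini-Hochberg and covered all tested genes. Overlap of groups was judged on FPKM as deposited. The method was tested on simulated data. Python 3.11.15, numpy 2.4.6, pandas 2.3.3 and matplotlib 3.10.9 were used.

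Named with values in every library were members called between genotypes or for the interaction. Named with group values were, per class, the 2 highest members in CPEB3+/- libraries of each stage, the 3 largest rises and falls between stages, *Kdm6b*, which the study lists, and partner genes called between genotypes. *Kmt2a* was added after its values were seen. The members and lists were chosen with earlier results of these data known. Some genes of the marker lists were not analysed here.

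Alternatives were other scalings, a pseudocount of 1, no filter or one of 1 FPKM, no fold threshold, removal of loess trends (span 0.5) with GC content and length, the replicate block, each library left out, and all 19 libraries in 1 fit.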

Additional observations from a re-analysis of the deposited data

Results flagged for a closer look

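*Setd1a* had 1.27 FPKM in library D of the CPEB3-/- 2cell embryos, above the other 3 libraries at 1, 1 and 1.02 FPKM, and stood apart by Dixon's criterion for 4 values. It was the single such value among 40 groups examined for the 10 called members, where chance gives about 1 in 20. Without this library the genotype difference of *Setd1a* was 0.80 on the log2 scale (adjusted p = 0.0669).

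The genotype difference changed between the stages for *Setmar* (interaction -1.34 on the log2 scale, adjusted p = 0.0233) and *Kdm1b* (0.83, adjusted p = 0.0132), by the limma test of the interaction.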

How the results depend on the processing

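Named members were refitted in the comparisons that had called them. All 476 refitted differences kept their direction, which this choice favours, and 397 of them were called. The number of called members moved by more than 1.5 times as follows, against 5 in MII oocytes, 7 in 2cell embryos, 23 and 19 between stages in CPEB3+/- and CPEB3-/- libraries and 2 for the interaction. In MII oocytes it was 2 on values as deposited (7.48% of all genes called higher and 5.62% lower) and 3 with all 19 libraries in 1 fit (3.41% and 4.39%). It was 8 without a fold threshold (10.3% and 11%), 2 with GC content removed (4.99% and 6.25%) and 3 with GC content and length removed (4.87% and 5.93%). In 2cell embryos it was 13 with scaling to the column sum (17.2% of all genes higher and 4.08% lower) and 2 with GC content and length removed (4.89% and 6.81%). A pseudocount of 1, which shrinks low genes, gave 1 in MII oocytes (1.57% of all genes higher and 3.01% lower) and 2 in 2cell embryos (3.58% and 4.7%). It gave 10 and 8 between stages (20.6% and 12.3%, and 21.5% and 12.1%) and 0 for the interaction (2.48% and 2.69%). For the interaction 11 members then had an unadjusted p under 0.05, and the number of all genes that did was not counted. A filter of 1 FPKM leaves 11, 15 and 18 members to test. It gave 3 in MII oocytes (7.42% of all genes higher and 10.1% lower) and 4 in 2cell embryos (13.6% and 13%). Between stages it gave 11 and 9 (44.7% and 31.5%, and 44.6% and 30.2%), and 1 for the interaction (5.29% and 5.7%).

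With the replicate letter as a block, 2 members were called in MII oocytes (*Setd2* and *Setmar*) and 1 in 2cell embryos (*Kdm6b*), while 359 and 470 of all genes in MII oocytes and 203 and 194 in 2cell embryos were called higher and lower. The genotypes share the letters, but these did not pair the libraries: deviations of libraries with the same letter correlated between -0.175 and 0.121, and only library D of each stage correlated best with its own letter. Between stages and for the interaction the block changed no count of members. Leaving out each library gave 1 to 7 called members in MII oocytes, 5 to 7 in 2cell embryos, 21 to 24 and 19 to 21 between stages and 2 to 3 for the interaction. In these fits of MII oocytes 414 to 721 of all genes were called higher and 542 to 842 lower, of 10753 to 10876 tested. In those of 2cell embryos 847 to 1292 were called higher and 904 to 1295 lower, of 13656 to 14727. In MII oocytes the count was 1 without CPEB3+/- library D or CPEB3-/- library B, 2 without CPEB3+/- library A or C or CPEB3-/- library A or C, and 7 without CPEB3-/- library D.

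Most members lie below 1 FPKM, where few fragments and the added 0.1 FPKM limit the size of any difference that can be read. The cause of the shifts under other settings was not tested.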
